A study of Mus musculus with 4 samples.

Results

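Lysosomal genes were examined in mouse bone marrow cells given heme: the subunits of the proton pump that acidifies the lysosome, the hydrolases that work in its lumen, and the proteins that surround and control them. The members were every gene measured by a probe set with a single symbol starting with Atp6v, which gave 21 genes, and 31 further genes fixed by name. Together they were 52 of the 19938 genes measured. Marrow of wild-type mice (labelled Bach1 (+/+)) and of knockout mice (labelled Bach1 (-/-)), all of B6 background, was grown for 6 days in medium with serum and 20 ng/ml GM-CSF, a cytokine that drives marrow toward macrophages and dendritic-type cells. The cultures then received 40 µM heme (the labels write a lower-case m) or its vehicle, a salt solution with ammonium hydroxide, and RNA came from the cells still adherent 24 hours later. Floating cells had been removed. There were 4 arrays, 1 for each combination of genotype and treatment, so differences carry no replicate check, p-value, SD or replicate error. No source used here says whether marrow of several mice was pooled, or what the deletion removes.

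The lysosome is the acid compartment in which macrophages break down what they engulf, including red cells and their hemoglobin. The vacuolar ATPase pumps protons through its membrane: the V1 sector hydrolyses ATP in the cytosol and turns a rotor that drives protons through the membrane sector, V0. Cathepsins and the other hydrolases need that acidity, and several of them are cut into their active form inside the lysosome. The transcription factors Tfeb, Tfe3 and Mitf switch on many lysosomal genes together through a short DNA element, called CLEAR, built around CACGTG. Bach1 is a heme-binding repressor that acts at another type of element, the Maf recognition element, at genes such as Hmox1.

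Promoter windows from RefSeq (GRCm38.p6), reaching from 250 bases before a gene's start to 50 bases after it, were used for 43 of the 52 members. The windows of a whole chromosome were left out of the search. A member without a window here may lie there, and all gene counts exclude it. The CLEAR core CACGTG stood in the window of 14 of them (32.6%), against 8.09% of all 27025 genes with a window and 11.8% of the 8963 such genes at level on these arrays. The longer form TCACGTGA, which contains the core, stood in 7 of the 43 (16.3%), against 1.12% of all genes and 2.22% of those at level. The same 8 bases with a G before and a C after, a 10-base form, stood in 0 of the 43, against 0.370% of all genes and 0.792% of those at level. All these motifs read the same on either strand. A gene with several windows was counted once if any of them held the motif. The 7 members with the longer form were the proton pump genes Atp6v0d1, Atp6v0e and Atp6v1a, the hydrolase genes Ctsa, Ctsd and Gla, and the calcium channel gene Mcoln1. Their sites are printed here, since genes of the pump, the hydrolases and the membrane are among these 7, although most members with a window lack the longer form. Each is written 5′ to 3′ on the gene's own strand with 12 bases on either side and the 8-base site in capitals.

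Atp6v0d1, chr8:105566049-105566080, minus strand: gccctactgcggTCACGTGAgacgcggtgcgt

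Atp6v0e, chr17:26676386-26676417, plus strand: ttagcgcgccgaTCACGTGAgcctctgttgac

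Atp6v1a, chr16:44139372-44139403, minus strand: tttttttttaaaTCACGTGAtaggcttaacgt

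Ctsa, upstream site, chr2:164833748-164833779, plus strand: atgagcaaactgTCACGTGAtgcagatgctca

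Ctsa, downstream site, chr2:164833765-164833796, plus strand: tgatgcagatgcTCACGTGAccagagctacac

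Ctsd, chr7:142387907-142387938, minus strand: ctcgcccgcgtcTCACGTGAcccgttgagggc

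Gla, upstream site, chrX:134601214-134601245, minus strand: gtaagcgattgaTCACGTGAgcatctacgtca

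Gla, downstream site, chrX:134601181-134601212, minus strand: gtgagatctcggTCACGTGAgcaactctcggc

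Mcoln1, chr8:3500461-3500492, plus strand: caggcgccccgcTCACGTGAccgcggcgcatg

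TGACTCAGC, a form of the Maf recognition element, was searched on both strands. It stood in 1 of the 43 (2.33%), Psap, against 0.503% of all genes and 0.569% of those at level. A match describes the letters in these windows and is not a binding site, and a missing match says nothing of the factor.

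Lgmn, the member with the largest heme response described here, carries the 6-base core in capitals in the window of its downstream start, chr12:102439043-102439342 on the minus strand. Its other window, at the upstream start, held no core. The printed window shows a core with no flanking TCACGTGA.

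Lgmn: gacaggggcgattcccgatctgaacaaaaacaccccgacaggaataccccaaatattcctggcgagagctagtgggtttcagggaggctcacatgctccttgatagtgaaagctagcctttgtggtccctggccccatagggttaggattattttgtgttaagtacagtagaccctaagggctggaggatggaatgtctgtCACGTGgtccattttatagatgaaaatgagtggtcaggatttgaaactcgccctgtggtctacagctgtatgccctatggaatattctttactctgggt

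Values are linear signals after RMA, a normalization that corrects background, matches the arrays' distributions and summarises the probes of a probe set. Differences are of log2 signals between 2 arrays. The 4 signals of a gene are listed throughout as wild type with vehicle, wild type with heme, knockout with vehicle and knockout with heme. Median signals of the 4 arrays lay between 30.4 and 31.4. The level asked of a gene was 30.96, the median over all probe sets and arrays, on the brighter array of a comparison, and 47 of the 52 members met it in every comparison. The spread of single-gene log2 differences over genes at level, which mixes noise with real differences, had a robust SD between 0.25 and 0.28, and 0.32 for the difference of the heme responses. Hmox1, the heme-degrading enzyme and a known Bach1 target, read 1827, 9881, 9047 and 10330.5. Spic, a transcription factor of red-pulp macrophages, read 17.0, 429, 298 and 679. Bach1 itself read 212, 264, 211 and 204, which did not separate the genotypes. No source used here places its probes relative to the deletion, so this checks nothing, and the arrays are called labelled knockout. All 14 macrophage markers were at level, while 0 of 8 markers of B, T and NK cells reached the level.

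With heme, most hydrolase genes had lower signals in wild-type cells, and proton pump genes lay on both sides of 0 with a median of -0.17. Whether hydrolase and pump genes differ was not tested. Of the 21 cathepsin and other hydrolase genes, 19 were lower on the wild-type heme array than on the vehicle array, with a median log2 difference of -0.46, against -0.01 over all 10772 genes at level. Of all 47 members at level 37 were lower (all genes 51.3%) and 10 higher (all genes 48.6%). Lgmn, which encodes the asparagine-specific protease legumain, was 2.19-fold lower and the one member past 2-fold. The differences were small: 6 of the 47 members at level were at least 1.5-fold lower (all genes 4.73%) and 1 was at least 1.5-fold higher (all genes 4.99%). At 2-fold the counts were 1 lower (all genes 0.891%) and 0 higher (all genes 1.17%). Atp6v1h, just past the 1.5-fold rule, stood at 0.60, and Ctsf, just short of it, at -0.56.

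In labelled knockout cells most hydrolases were again lower with heme, with a median nearer 0. Of the 21, 16 were lower, with a median of -0.25 against 0.02 over the 10843 genes at level. Of all 47 members at level 30 were lower (all genes 47.5%) and 17 higher (all genes 52.4%). Of these, 2 were at least 1.5-fold lower (all genes 3.07%), Ctsk and Lgmn, and 2 at least 1.5-fold higher (all genes 5.03%), Atp6v1h and Gaa. No member reached 2-fold in this comparison, where 1.2% of all genes were higher and 0.452% lower by that much.

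The heme responses of the genotypes share no array. In 28 of the 47 members the signal was lower with heme in both, against 29.5% of all genes at level. Among the cathepsins this held for 8 of 10, among the other hydrolases for 8 of 11, and among the V-ATPase genes for 5 of 16. In 23 of 47 members both heme arrays lay below both vehicle arrays (all genes 19.5%), and in 5 both lay above (all genes 21.4%). The 5 were Atp6v1e1, Atp6v1g1, Atp6v1h, Gaa and Tfe3.

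Markers of cell types moved between the same arrays. The summed signal of 14 macrophage markers, all at level, was 22742, 20293, 21900 and 21431, with Lyz2 the brightest at 9990.3 to 10705. Gene by gene, 13 of the 14 were lower with heme in wild type (all genes 51.3%), with a median of -0.31. At least 2-fold lower were 4 (all genes 0.891%), the complement genes C1qa, C1qb and C1qc and the Fc receptor gene Fcgr1. In the labelled knockout 8 of the 14 were lower with heme (all genes 47.5%), with a median of -0.04. Between genotypes, 7 of the 14 were lower in the labelled knockout under each treatment (all genes 52.5% in vehicle, 47.9% with heme). In vehicle 4 were at least 2-fold lower there (all genes 1.14%) and 0 as much higher (all genes 0.525%). With heme 3 were at least 1.5-fold lower there (all genes 3.43%) and 1 as much higher (all genes 3.38%). In wild type, most macrophage markers were lower with heme on the same array as the hydrolases. Neutrophil markers (13 of 15 at level) summed to 11180, 14560, 9379 and 11899, higher with heme in both genotypes, while the granule protease gene Ctsg stayed below the level. Dendritic cell markers (11 of 15 at level) summed to 12967, 10384, 3965 and 3283, lower in the labelled knockout. Osteoclast and multinucleated macrophage markers (9 of 11 at level), which include the members Ctsk and Atp6v0d2, summed to 4382, 3368, 4938 and 3835. Without these members the other 9 (7 at level) summed to 858, 753, 695 and 644, lower in the labelled knockout under both treatments, where the full sum was higher. The osteoclast fusion gene Dcstamp, part of both sums, read 217, 186, 74.0 and 68.3, low on both knockout arrays. Ctsk was higher there than in wild type under the same treatment. Of the full list's 9 genes at level, 4 were higher and 5 lower in the labelled knockout in vehicle (all genes 47.3% and 52.5%). With heme 6 were higher and 3 lower (all genes 52% and 47.9%). These counts include Ctsk and Atp6v0d2, so the sums do not give the direction of single genes. The part of these shifts in the lysosomal differences was not tested. In these bulk cultures fewer cells of a type and less RNA per cell cannot be told apart.

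**Figure D1:**
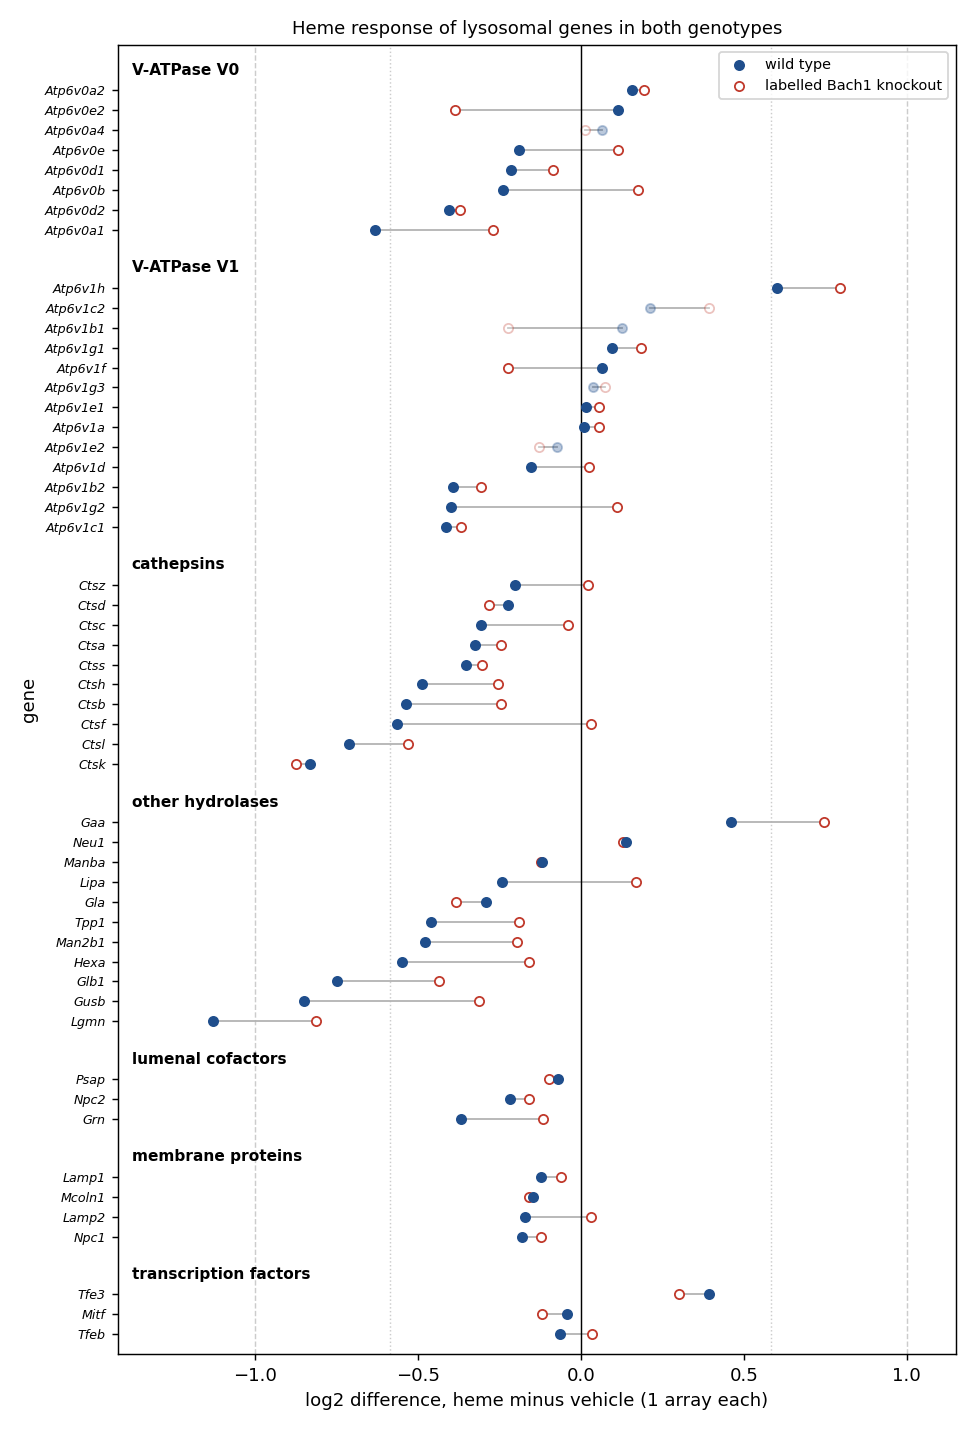
Log2 difference of signal between heme and vehicle for each of the 52 members, in wild type (filled) and labelled knockout (open), grouped by role. Each point compares 1 array with 1 array, pale points never reached the level of 30.96, dotted lines mark 1.5-fold and dashed lines 2-fold. All 10 filled cathepsin points lie left of 0, and Lgmn alone passes the 2-fold line.

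Cathepsins are the main proteases of the lysosome. All 10 measured were lower with heme in wild type (all genes 51.3%), with a median of -0.42 and a range from -0.83 to -0.20. In the labelled knockout 8 of 10 were lower (all genes 47.5%), with a median of -0.25 and a range from -0.87 to 0.03. The wild-type heme array was the lowest of the 4 arrays at all 10 (all genes 26.1%).

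Ctsk, a collagen-degrading protease best known from osteoclasts, read 237, 133, 384 and 209.6. It was lower with heme in both genotypes, by 1.78-fold and 1.83-fold, and higher in the labelled knockout under both treatments, by 1.62-fold and 1.58-fold. Of genes at level, 1.6% had a lower heme response in wild-type cells, and 0.7% in the labelled knockout.

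Ctsl, a protease that also processes the invariant chain of antigen presentation in some cells, read 1265, 772, 1276 and 882. The vehicle arrays were nearly equal and both heme arrays lay below them, by 1.64-fold and 1.45-fold. Ctsb, a broad-range cysteine protease, read 3508, 2415, 3757 and 3169, lower with heme by 1.45-fold and 1.19-fold.

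Ctsd, the chief aspartic protease, read 6513, 5582, 7979 and 6559. Its heme responses were -0.22 and -0.28, and the knockout vehicle array was the highest. Its brightest signal stood at percentile 99.8 of its array, and how far the top of the signal range narrows such differences was not tested. Ctsc, which activates granule serine proteases, read 1995, 1613, 1795 and 1746, so that its response was -0.31 in wild-type cells and -0.04 in the labelled knockout.

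Ctsz, a carboxypeptidase, read 1324, 1149.7, 1230.3 and 1249, with responses of -0.20 and 0.02. Ctsf read 92.5, 62.6, 69.6 and 71.2. Here the wild-type vehicle array stood above the other 3, which lay close together. The 3 remaining cathepsins were lower with heme in both genotypes: Ctsa stood at -0.33 and -0.25, Ctsh at -0.49 and -0.25, and Ctss, the protease that trims the invariant chain, at -0.35 and -0.30 on the log2 scale. Ctsa, a carboxypeptidase, also shields the glycosidases Neu1 and Glb1 in a complex.

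The other hydrolases cut sugars, lipids and peptides. Of the 11 measured, 9 were lower with heme in wild-type cells (median -0.46, all genes 51.3% lower). In the labelled knockout 8 were lower (median -0.19, all genes 47.5% lower). The responses ran from -1.13 to 0.46 in wild-type cells and from -0.81 to 0.75 in the labelled knockout, so the group was less uniform than the cathepsins in its range.

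Lgmn read 1228, 561, 915 and 520.2. Both heme arrays lay far below both vehicle arrays, and 0.6% of genes at level had a lower response in wild-type cells and 0.9% in the labelled knockout. Legumain cuts several cathepsin precursors into their mature chains.

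Gusb, which encodes beta-glucuronidase, read 184, 102, 172 and 139. The vehicle arrays were alike, and the signal was lower with heme by 1.8-fold in wild-type cells and 1.24-fold in the labelled knockout. Glb1, the beta-galactosidase whose loss causes a ganglioside storage disease, read 371, 220.4, 344 and 254, lower with heme by 1.68-fold and 1.35-fold. Both genes had their lowest value on the wild-type heme array.

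Gla, the alpha-galactosidase, read 615, 503, 863 and 662. It was lower with heme in both genotypes, at -0.29 and -0.38, and higher in the labelled knockout under both treatments. Lipa, the acid lipase that frees cholesterol from its esters, read 1024, 865, 1227 and 1380.2. Its response was -0.24 in wild-type cells and 0.17 in the labelled knockout, and both knockout arrays stood above both wild-type arrays.

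Gaa, the enzyme that degrades glycogen in the lysosome, went against its group. It read 118, 163, 126 and 212, higher with heme by 0.46 and 0.75 on the log2 scale. In wild type 92.2% of genes at level had a lower response, and in the labelled knockout 97.2%. Neu1, a sialidase, read 78.5, 86.4, 90.7 and 99.3, with responses of 0.14 and 0.13.

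The 4 hydrolases not named so far were lower with heme in both genotypes. Hexa, a subunit of beta-hexosaminidase, differed by -0.55 and -0.16, Man2b1, an alpha-mannosidase, by -0.48 and -0.20, the peptidase Tpp1 by -0.46 and -0.19, and Manba, a beta-mannosidase, by -0.12 and -0.12.

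**Figure D2:**
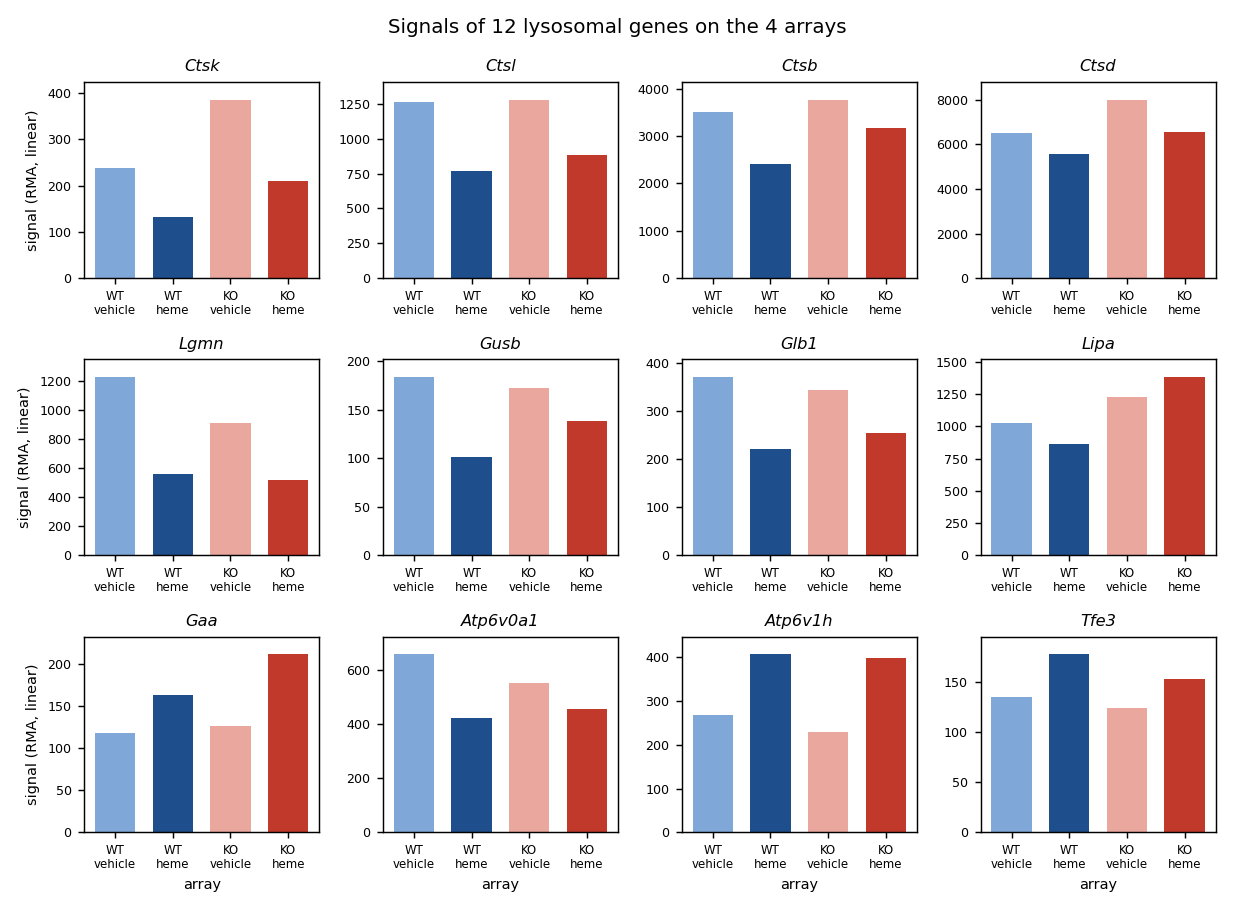
Linear signals after RMA of 12 members on the 4 arrays (WT wild type, KO labelled knockout), 1 bar per array and no error bars, since each group holds 1 array. Axes start at 0 and differ between panels, so heights compare arrays within a gene and not between genes. Ctsk, Ctsl, Ctsb, Lgmn, Gusb, Glb1 and Atp6v0a1 have both heme bars below both vehicle bars, while Gaa, Atp6v1h and Tfe3 have both above.

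Lumenal cofactors and membrane proteins differed little. The 3 cofactors were lower with heme in both genotypes (all genes 29.5%), with medians of -0.22 and -0.12. Grn, the precursor of the granulins, read 4423, 3427, 4040.0 and 3725. Its heme response was -0.37 in wild-type cells and -0.12 in the labelled knockout. Npc2, which hands cholesterol to Npc1, read 2582, 2220.5, 2691 and 2411, with the heme arrays below the vehicle arrays. Psap, the precursor of the saposins that help enzymes reach lipids, read 6578, 6268, 7050.3 and 6582, with responses of -0.07 and -0.10.

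All 4 membrane proteins were lower with heme in wild type (all genes 51.3%), at -0.18 to -0.12, and 3 of 4 in the labelled knockout (all genes 47.5%). The cholesterol exporter Npc1 read 658, 580.0, 741 and 681. Lamp2, a structural glycoprotein of the lysosomal membrane, read 1811, 1607, 1729 and 1767, so that 3 of its 4 arrays lay close together. Mcoln1, the channel that releases lysosomal calcium, read 369, 334, 383 and 342, with responses of -0.15 and -0.16. Lamp1, the other abundant glycoprotein, differed by -0.12 and -0.06.

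Proton pump genes differed among themselves in direction. Of the 16 at level, 9 were lower and 7 higher with heme in wild type (median -0.17, all genes 51.3% lower). In the labelled knockout 7 were lower and 9 higher (median 0.04, all genes 47.5% lower). The V0 sector had a median of -0.21 in wild-type cells and -0.08 in the labelled knockout over its 7 genes at level, and the V1 sector 0.01 and 0.05 over its 9. With heme in wild type 1 of the 16 was at least 1.5-fold lower, Atp6v0a1 of V0 (6.25%, all genes 4.73%). Another 1 was at least 1.5-fold higher, Atp6v1h of V1 (6.25%, all genes 4.99%). Both shares lay near those of all genes.

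Atp6v0a1, a form of the large a subunit of V0, read 657, 424, 550.3 and 457. Both heme arrays lay below both vehicle arrays, by 1.55-fold and 1.21-fold. Atp6v0d2, the d subunit form found in osteoclasts and some macrophages, read 3287, 2482, 3858 and 2981. It too was lower with heme in both genotypes (-0.41 and -0.37) and higher in the labelled knockout under both treatments (0.23 and 0.26).

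Atp6v0d1, the widely expressed d subunit, read 452, 389, 335 and 316. Both knockout arrays lay below both wild-type arrays. Another a subunit, Atp6v0a2, read 128, 143, 108 and 124, and its second probe set gave a heme response of -0.17 in wild type where the one used gave 0.16.

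Atp6v0b, a subunit of the proton-carrying rotor, read 730.2, 619, 614 and 693, so that its response was -0.24 in wild-type cells and 0.18 in the labelled knockout. Atp6v0e read 1486, 1303, 1382 and 1497, with responses of -0.19 and 0.12. Its relative Atp6v0e2 read 41.3, 44.7, 54.6 and 41.7, with only the knockout vehicle array apart. Atp6v0a4, the a subunit form of the kidney, stayed below the level on all arrays, between 12.9 and 14.7. Atp6v0c, which encodes the main rotor subunit, was not analysed here.

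In the V1 sector, Atp6v1h, the regulatory H subunit, read 268, 407, 229 and 398. It was higher with heme in both genotypes, by 0.60 and 0.80, and the vehicle and heme arrays did not overlap. Of genes at level, 95.3% had a lower response in wild-type cells and 97.6% in the labelled knockout. Against this, Atp6v1b2, the B subunit form of most tissues, read 1796, 1368, 2071 and 1674, and Atp6v1c1, a C subunit, read 696, 523, 808 and 626. Both had their heme arrays below their vehicle arrays, with responses between -0.41 and -0.31, and both had higher signals in the labelled knockout under each treatment.

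Atp6v1g2 read 85.9, 65.2, 78.1 and 84.4, with the wild-type heme array alone low. Atp6v1f read 979, 1024, 1055 and 903, and its second probe set gave the same signs, with heme responses of 0.09 and -0.31. The catalytic A subunit Atp6v1a differed by 0.01 and 0.05, Atp6v1e1 by 0.02 and 0.05, Atp6v1d by -0.15 and 0.02 and Atp6v1g1 by 0.09 and 0.18. The second probe set of Atp6v1g1 gave 0.12 and 0.20. The tissue-restricted forms Atp6v1b1 (19.6, 21.4, 21.3 and 18.2), Atp6v1c2 (21.7, 25.1, 18.7 and 24.5), Atp6v1g3 (7.99, 8.19, 9.36 and 9.84) and Atp6v1e2 (between 20.4 and 22.5) never reached the level.

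Of the transcription factors of lysosomal genes, only Tfe3 moved by more than 0.2 with heme. Tfe3 read 136, 178, 124 and 153. Both heme arrays lay above both vehicle arrays, by 0.39 and 0.30 on the log2 scale. Tfeb read 101, 96.4, 95.3 and 97.6, with responses of -0.06 and 0.03. Mitf read 277, 268, 273 and 251, with responses of -0.04 and -0.12, and its second probe set stayed at or below 13.3. These are mRNA signals, while the factors are controlled largely by their place in the cell.

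Members whose promoter window held CACGTG had nearly the same median heme response as the other members. The 14 had a median of -0.23 in wild type, and the 24 members at level with a window and no core had -0.21. In the labelled knockout the medians were -0.12 and -0.12. Among the holders stood both Lgmn and Gaa, the lowest and the highest response of the hydrolases in wild type.

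The knockout difference in vehicle, which compares labelled knockout with wild type without added heme, had no common direction among the lysosomal genes. Of the 47 members at level, 22 were higher (all genes 47.3%) and 25 lower (all genes 52.5%), with a median of -0.04 against -0.02 over the 10859 genes at level. Ctsk alone passed 1.5-fold, 1.62-fold higher (1 of 47; all genes 3.25%), and 0 members were 1.5-fold lower (all genes 4.31%). No member reached 2-fold, where 0.525% of all genes were higher and 1.14% lower. Cathepsins had a median of 0.06, the other hydrolases -0.06, V0 genes -0.25 and V1 genes -0.04. After Ctsk, the widest differences were those of Gla (0.49), Atp6v0e2 (0.40), Atp6v0d1 (-0.43), Lgmn (-0.42) and Ctsf (-0.41). Over all 52 members, 27 were below 0 on the deposited scale, 20 after a second quantile normalization and 21 after lowess centring, so that the side on which most members lay depended on the scaling.

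With heme in both cultures, most members, among them nearly all hydrolases, were higher on the array labelled knockout. All 10 cathepsins were higher, by 0.05 to 0.66, and 10 of the 11 other hydrolases, the exception being Lgmn at -0.11. Their medians were 0.21 and 0.22, against 0.01 over the 10790 genes at level. Of all 47 members at level 9 were lower (all genes 47.9%) and 38 higher, against 52% of all genes at level and 52.8% of those above the 75th percentile of signal. Lipa (1.60-fold) and Ctsk (1.58-fold) passed 1.5-fold (2 of 47; all genes 3.38%), 0 members were 1.5-fold lower (all genes 3.43%) and 0 reached 2-fold (all genes 0.519% higher and 0.973% lower). Of the 16 pump genes at level 10 were higher and 6 lower (all genes 52% and 47.9%), with medians of 0.11 for V0 and 0.06 for V1. Of the 3 transcription factors 1 was higher and 2 lower, with a median of -0.09. Atp6v1g2 (0.37) and Atp6v0d1 (-0.30) were the widest of the pump.

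This comparison and the wild-type heme response both use the wild-type heme array, which was the lowest of the 4 at 32 of the 47 members (all genes 26.1%). The values of both are therefore given side by side and are not independent. Of the cathepsins, 7 of 10 were higher in the labelled knockout under both treatments. Over all members it was higher under both at 20 of 47 members (all genes 28.4%) and lower at 7 (all genes 28.7%). Both knockout arrays lay above both wild-type arrays at 7 members (all genes 17.1%) and below them at 2 (all genes 18%), both of the V0 sector.

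**Figure D3:**
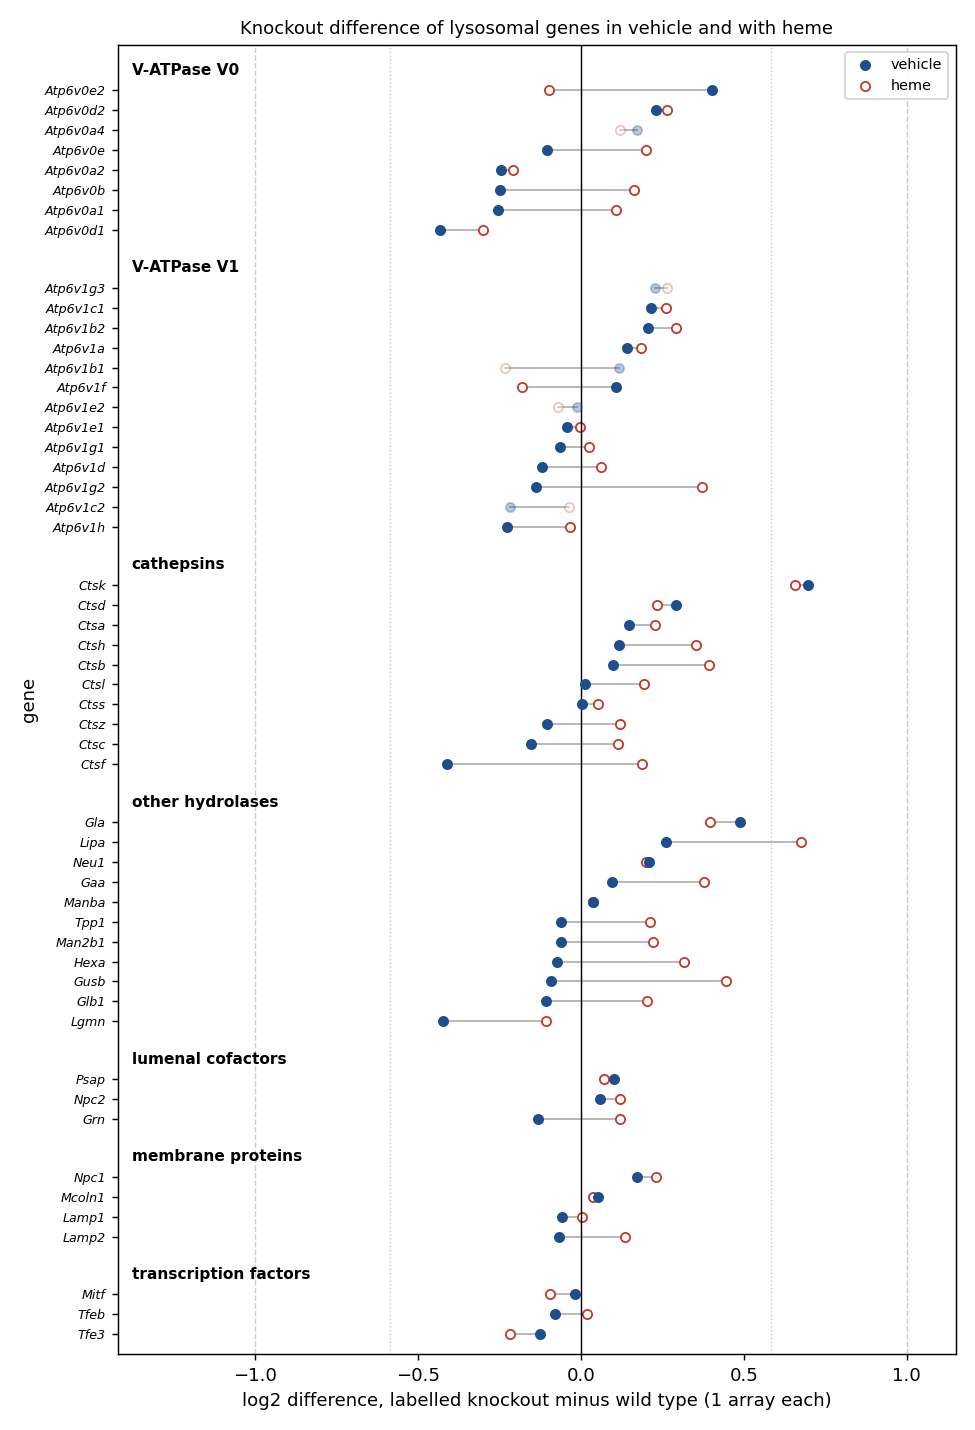
Log2 difference between labelled knockout and wild type for the 52 members, in vehicle (filled) and with heme (open), grouped by role. Each point compares 1 array with 1 array, pale points never reached the level, dotted lines mark 1.5-fold and dashed lines 2-fold. Open points of all 10 cathepsins lie right of 0, while filled points fall on both sides.

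The difference of the heme responses, labelled knockout minus wild type, uses all 4 arrays. How far it reflects Bach1 was not tested. It subtracts the wild-type heme array, so it is not independent of the wild-type heme response or of the knockout difference with heme. It was below 0 at 11 of 47 members (all genes 45.6%) and above 0 at 36, against 54.4% of all genes at level and 60.8% of those above the 75th percentile of signal. The median was 0.28 for the other hydrolases, 0.20 for the cathepsins, 0.13 for V0 and 0.09 for V1, against 0.03 over 11155 genes at level and 0.07 over the 5783 brighter ones. Only Ctsf passed 1.5-fold, at 0.60 (1 of 47; all genes 6.27%), and 0 members did so below 0 (all genes 5.15%). At 2-fold there were 0 in either direction, where 1.17% of all genes were above and 0.879% below. Gusb (0.54), Atp6v1g2 (0.51), Lipa (0.41), Atp6v0b (0.41) and Hexa (0.39) came next, and Atp6v0e2 (-0.50) was the lowest. For Ctsk (-0.04), Ctss (0.05), Ctsd (-0.06) and Atp6v1b2 (0.09) the responses of the genotypes were nearly equal. Values above 0 were not particular to lysosomal genes. The 14 macrophage markers had a median of 0.30, with 12 above 0 and 2 below (all genes 54.4% and 45.6%). Of them 4 passed 1.5-fold above 0 (all genes 6.27%) and 0 below (all genes 5.15%). Of 13 neutrophil markers at level, 5 were above 0 and 8 below, with a median of -0.27.

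Lists of other lysosomal genes, fixed by name, were set beside the members. Of 122 further genes at level in wild type, 90 were lower with heme (all genes 51.3%) and 32 higher (all genes 48.6%). Their median was -0.14, against -0.01 over all genes at level. At least 1.5-fold lower were 12 and higher 2, beside 4.73% and 4.99% of all genes. In the labelled knockout the median over 121 was -0.03, with 2 lower (all genes 3.07%) and 5 higher (all genes 5.03%) by 1.5-fold, which are 1.65% and 4.13% of the 121.

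Among 34 further hydrolases at level the wild-type median was -0.21. At least 1.5-fold lower there were 4 (11.8%, all genes 4.73%) and higher 1 (2.94%, all genes 4.99%). Galc, the galactosylceramidase, read 134, 78.3, 138 and 104, and Pla2g15, the lysosomal phospholipase A2, read 206, 128, 185 and 196. Smpdl3b, a membrane-bound sphingomyelinase relative, read 71.0, 167, 67.3 and 140.3. Of the further hydrolases it alone was 2-fold higher with heme, in wild type (1 of 34, all genes 1.17%) and labelled knockout (1 of 33, all genes 1.2%). Plbd1, a phospholipase B-like gene, read 428, 374, 79.3 and 148, so that both knockout arrays lay below both wild-type arrays by 2-fold or more.

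Further membrane proteins and transporters (36 at level, wild-type median -0.12) held 2 genes past 2-fold with heme in wild type. Of these 1 was higher (all genes 1.17%) and 1 lower (all genes 0.891%). At least 1.5-fold lower were 7 of the 36 (19.4%, all genes 4.73%) and higher 1 (all genes 4.99%). Slc48a1, which carries heme out of the lysosome into the cytosol, read 418, 1113, 845 and 1242. Slc46a3, a lysosomal transporter, read 133, 64.5, 106 and 127, low on the wild-type heme array alone. Slc36a1, an amino acid exporter, read 345, 195, 266 and 189, and the channel Mcoln3 read 63.3, 35.9, 57.8 and 36.7, both with the heme arrays below the vehicle arrays.

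Pump accessory and assembly genes had a median of -0.16 in wild-type cells and 0.01 in the labelled knockout (14 at level). Of the 14, 0 passed 1.5-fold in either response. In wild type 4.73% of all genes were lower and 4.99% higher by that much, and in the labelled knockout 3.07% and 5.03%. Atp6ap1, an accessory subunit, read 989, 751, 905 and 824, while Tcirg1, the a subunit of osteoclast and macrophage pumps, read 1238, 1112, 1270.5 and 1259. Sorting genes (22 at level) had medians of -0.12 and -0.12. Igf2r, the mannose 6-phosphate receptor that brings hydrolases to the lysosome, was 1.66-fold lower with heme in wild-type cells (172 and 104) and 1.28-fold lower in the labelled knockout (135 and 106). Sort1, a sorting receptor, was higher in the labelled knockout under both treatments (1.77-fold in vehicle, 1.51-fold with heme). Nutrient-sensing genes of the lysosomal surface had medians of -0.13 and -0.01 over 16 at level.

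A list of cystatins and other protease inhibitors, among them serpins, held 9 genes at level in wild type, of which 6 were higher with heme (all genes 48.6%). At least 1.5-fold higher were 4 (all genes 4.99%) and lower 0, and 3 were 2-fold higher (all genes 1.17%). In the labelled knockout 6 of 8 were higher (all genes 52.4%), 2 by 1.5-fold (all genes 5.03%) and 0 by 2-fold (all genes 1.2%). Stfa2, a stefin that blocks cysteine cathepsins, read 194, 581, 163 and 262. Stfa3 read 274, 633, 277 and 440.1, and Csta3 read 12.8, 34.1, 7.0 and 8.60, reaching the level on the wild-type heme array alone, so that it could enter these counts only by being high there. Csta2 read 149.9, 171, 69.5 and 74.9, with both knockout arrays below both wild-type arrays. Stefins of this family are near-identical copies, so their probe sets may share signal and the values for single genes are uncertain. The secreted inhibitor Cst3 read 3653, 2756, 2722 and 2568, highest in wild-type vehicle, and Cstb read between 1866 and 2052.

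**Figure D4:**
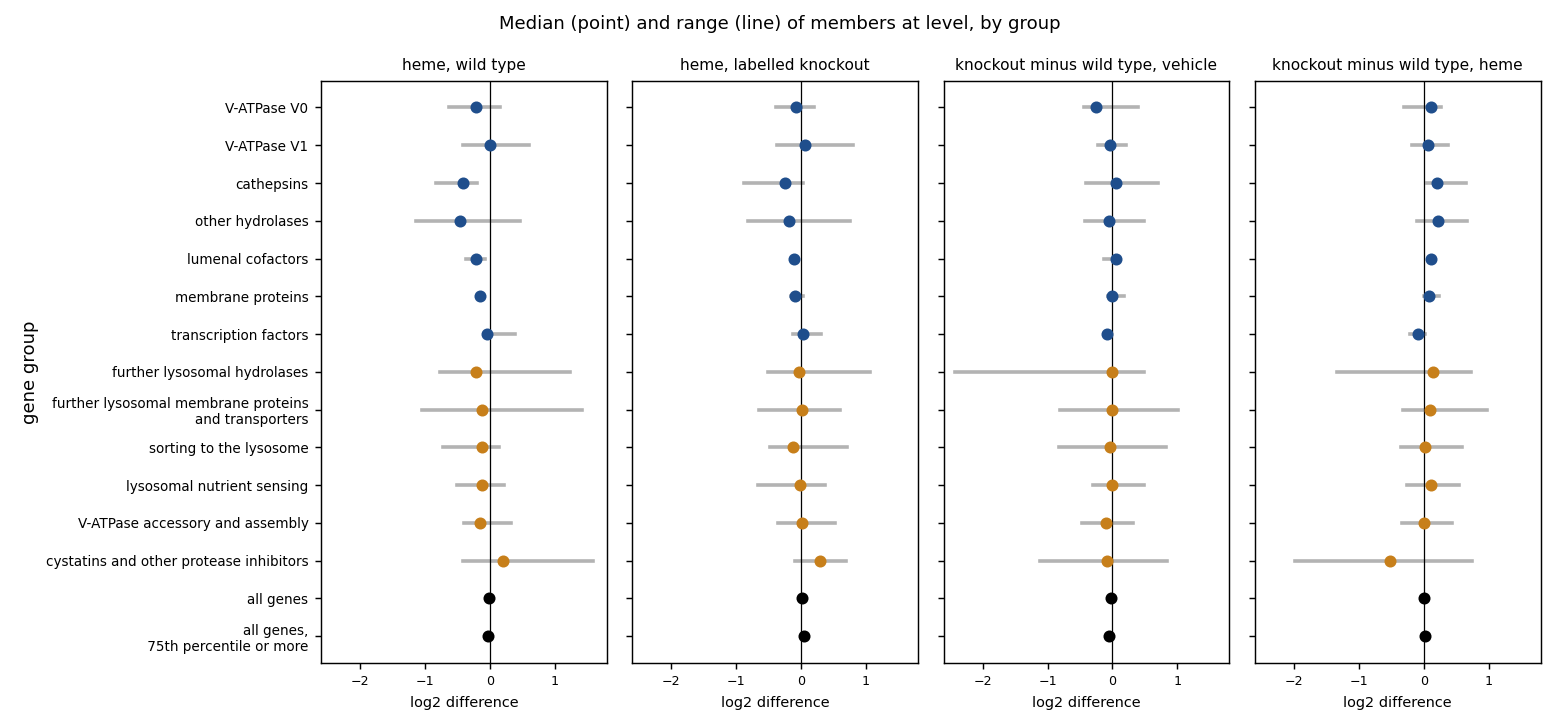
Median (point) and range (line) of log2 differences over the genes at level in each group, for the comparisons of 2 arrays. Role groups of the members are blue, the other lists orange and all genes black (points only, without their range). Hydrolase medians lie lowest with heme in wild type (-0.42 and -0.46), and the black points lie between -0.05 and 0.04.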

How the data were processed

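Biotin-labelled cRNA was made with an Ovation PicoSL kit (NuGEN) and hybridised, 1 array per group. The deposited values are linear signal intensity after RMA, run by the authors per the submitters' processing notes, with no version named. The series' design text describes sorted progenitors and does not match the sample labels, which were followed. The files hold no detection call, so the distance of a low signal from background is unknown.

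Of 35556 probe sets, 21789 had a single gene symbol in the array's annotation (1621 had several, 12146 were not listed). Symbols were updated through RefSeq (GRCm38.p6), and the probe set with the highest mean stood for each gene. The role groups split the given member list. Members, lists and the naming rule were chosen with earlier results of these data known. The naming rule gives all 4 signals of the members with the largest increases and decreases per role group and comparison (2 each, 1 in groups under 5), and of Tfeb, Tfe3 and Mitf. From the other lysosomal and inhibitor lists, not the cell type markers, the rule names genes past 2-fold, or else the 3 widest per direction and comparison; those past 2-fold are printed, and the other genes of these lists and the markers printed here were chosen after their values were seen. With 1 array per group no test was run; the array number limits the precision. The script that applies the fold rules was run on simulated data with planted 3-fold differences, which checks the code and not these data. Alternatives were other fold rules and level filters (75th percentile, a signal of 106), a second quantile normalization, lowess centring, 32 added to each signal and averaging all probe sets per gene. Work was done in Python 3.11.15 (pandas 2.3.3, numpy 2.4.6), with lowess from statsmodels 0.14.6 and plots from matplotlib 3.10.9.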

Additional observations from a re-analysis of the deposited data

Results flagged for a closer look

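Ctsf was the one member whose heme responses had opposite signs in the genotypes and differed by 1.5-fold or more: -0.56 in wild-type cells and 0.03 in the labelled knockout, a difference of 0.60 on the log2 scale. The difference was not tested, since each value compares 1 array with 1 array, and it rests on a wild-type vehicle signal of 92.5 beside 62.6, 69.6 and 71.2 on the other arrays. After a second quantile normalization the knockout response was -0.02, so the signs were no longer opposite. The difference was 0.57 with that normalization and with lowess centring, and 0.42 with 32 added, all short of 1.5-fold, and Ctsf is not counted with the level at the 75th percentile.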

How the results depend on the processing

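With 1 array per group, nothing here measures how results would vary between cultures. No paired analysis was possible because each group holds 1 array. Of 225 group medians recomputed, 223 moved by less than 0.1 log2; the other 2 were the medians of the transcription factors with all probe sets averaged per gene, 0.15 for heme in wild type and -0.22 for the knockout difference with heme, where the dim second probe set of Mitf enters. Counts differed by over 1.5 times in 15 of 140 cases; within that tolerance, the 6 members 1.5-fold lower with heme in wild type became 8 after a second quantile normalization. With a 1.5-fold in place of a 2-fold rule, 1 member was higher and 6 lower with heme in wild-type cells, 2 and 2 in the labelled knockout, 1 higher in the knockout difference in vehicle, 2 higher with heme, and 1 higher in the difference of responses; with a 3-fold rule 0 were lower in wild type. At 1.5-fold, the 1 member higher with heme in wild type, Atp6v1h, dropped out (0) after a second quantile normalization and with 32 added, and the 2 higher in the knockout difference with heme became 1 with 32 added. Ctsf, the 1 member past 1.5-fold in the difference of responses, was lost (0) with a level filter at the 75th percentile, a second quantile normalization, lowess centring and 32 added. Among differences of at least 0.1, those of Atp6v0a2 in wild-type cells (0.16) and Mitf in the labelled knockout (-0.12) changed sign under an alternative.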
